A study of Mus musculus with 18 samples.

Results

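Bile duct preparations of wild-type (WT) mice were compared between 1 month and 2 months after tamoxifen, the drug that switches on inducible Cre recombinases. The members are the 6 WT libraries of a series of 18, chosen by genotype and month as their titles give them, with 3 libraries at each time and every counted gene read. The series also holds untreated mice with polycystic liver disease (PLD) at the same times, and 6 libraries of drug-treated PLD mice that were not used here. All untreated mice, WT included, are labelled by time after tamoxifen. The labels name no Cre line, promoter, floxed gene, strain, sex or age. The labels give bile duct tissue of perfused livers, freed of parenchyma, minced, digested and captured on magnetic beads that carry an EpCAM antibody, EpCAM being an adhesion protein of epithelium, with purity judged by staining for cytokeratin-19. They do not say whether the 3 libraries of a group come from separate mice, so p-values measure the spread between these libraries, which may be technical.

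Cholangiocytes, the lining epithelium of bile ducts, modify bile by moving chloride, bicarbonate and water. The ducts run in the portal tracts beside branches of the portal vein and the hepatic artery, within a sleeve of fibroblasts, smooth muscle and nerves, and close to the sinusoids, whose endothelium is fenestrated and scavenges proteins from blood. In a resting adult liver these cells divide rarely. A capture on beads enriches the epithelium but can carry over cells of that sleeve and of nearby vessels, and in bulk RNA fewer cells of a type and less RNA per cell cannot be told apart.

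The 6 libraries held between 18012959 and 27999474 counts, and replicate 1 at 2 months stood apart in that 40039 genes had a count, of which 19502 had 1 to 9, against 24494 to 29725 genes with a count in the other 5. Levels below are CPM, counts scaled to a common library size after TMM normalization, and changes are log2 fold changes ± standard error, 2 months over 1 month, from edgeR. All 6 libraries had the same pattern of sex-linked genes: Ddx3y, on the Y chromosome, ran from 120.0 to 192.9 CPM and Xist, the RNA of the inactive X chromosome, from 0.181 to 0.344 CPM.

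Cholangiocyte markers were detected, with RNA of other duct tissue beside them. All 24 cholangiocyte markers were tested, and 0 of them was under 1 CPM in all WT libraries. At 1 month they summed to 7895, 7369 and 17703 CPM, against 17112, 10386 and 2581 CPM for the smooth muscle markers and 9513, 12160 and 4072 CPM for the portal fibroblast markers. At 2 months they summed to 6840, 4859 and 9247 CPM, against 9545, 16399 and 10568 CPM for the pan-endothelial markers. In replicate 3 at 1 month, alone among the 6 libraries, the cholangiocyte sum was above all 3 of these other lists, although such sums are not per length and the lists differ in size. Epcam stood at 195.2, 185.5 and 412.6 CPM in replicates 1 to 3 at 1 month and at 140.4, 109.8 and 160.9 CPM at 2 months. Krt19, the keratin used for staining, stood at 421.3, 255.2 and 566.0 CPM and then at 295.3, 188.0 and 213.9 CPM. Both genes were highest in replicate 3 at 1 month. For Krt19 the 2 groups overlapped, whereas for Epcam every 2-month library lay below the 1-month libraries. Krt7 (84.3, 59.9 and 154.3 CPM, then 81.8, 52.3 and 68.6 CPM) and Sox9, a duct transcription factor (132.1, 140.6 and 330.9 CPM, then 97.8, 56.8 and 147.4 CPM), had the same highest library and overlapping groups. None of these 4 genes was called, with changes of -0.95 ± 0.30 for Epcam, -0.83 ± 0.32 for Krt19 and -0.56 ± 0.35 for Krt7 (edgeR adjusted p from 0.187 to 0.466).

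Markers of cells around the ducts were present in every WT library. Summed over their lists, smooth muscle markers gave 17112, 10386 and 2581 CPM at 1 month and 5451, 5972 and 6276 CPM at 2 months. Sinusoidal endothelial markers summed to 2210, 2768 and 1065 CPM and then to 4107, 9652 and 5834 CPM. For the cholangiocyte markers the sums were 7895, 7369 and 17703 CPM at 1 month and 6840, 4859 and 9247 CPM at 2 months. Replicate 3 at 1 month thus had the highest sum of cholangiocyte markers and the lowest sums of the other pair of lists.

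**Figure D1:**
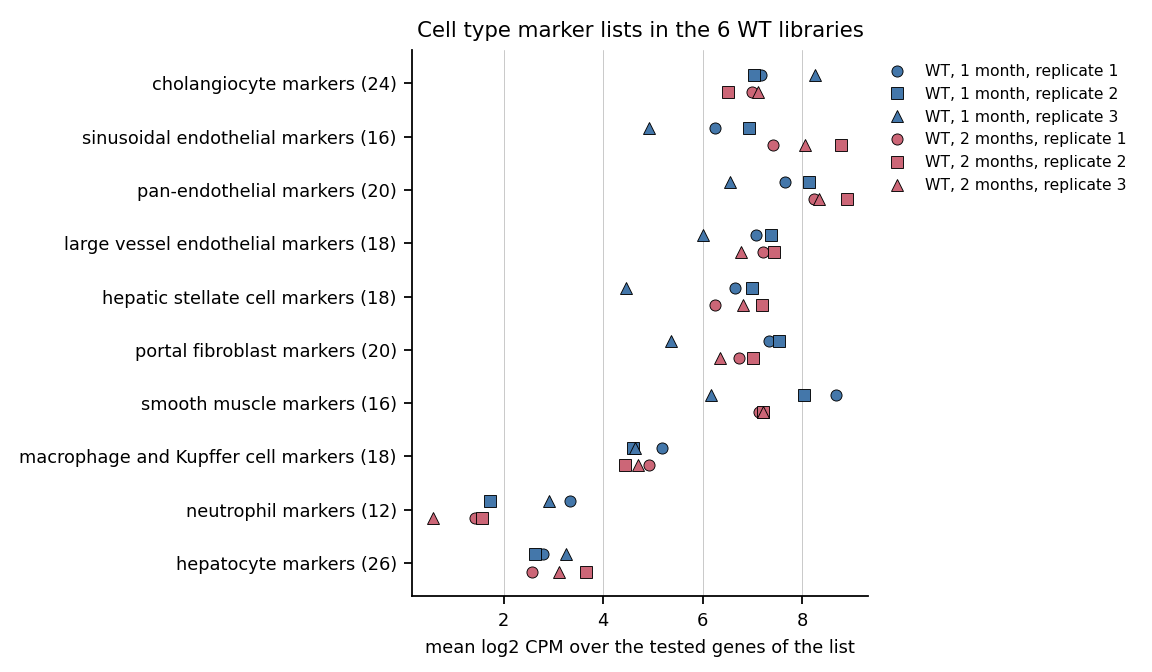
Mean log2 CPM of the tested genes of 10 cell type marker lists (number of genes in brackets) in each WT library, 1 month above and 2 months below within each row, with the symbol giving the replicate. Replicate 3 at 1 month is the highest point for cholangiocyte markers, at 8.26, and the lowest for smooth muscle, at 6.17, while all 3 points at 2 months lie above the 1-month points for the sinusoidal list; lists differ in gene length and number, so rows are not compared with each other.

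The spread between bead preparations was uneven, and 1 library accounted for its widest part. Over 10257 genes with a mean of at least 10 CPM in WT, 1-month replicates 1 and 2 differed by more than 2-fold in 1.51% of genes, replicates 1 and 3 in 18.2%, and replicates 2 and 3 in 18.1%. At 2 months the 3 pairs differed by more than 2-fold in 1.66%, 2.15% and 3.01% of genes, and in the untreated PLD groups the pairs ranged from 0.653% to 5.66%. The biological coefficient of variation was 40.2% over the 3 libraries at 1 month, 21.2% over replicates 1 and 2 alone, and 24.7% at 2 months. The fitted change from 1 to 2 months, a difference of means of 3 libraries and so not on the scale of a pair, passed 2-fold in 3.48% of the same genes. Over all 17749 genes tested, that library was the lowest of the 6 for 29.6% and the highest for 29.6%, and the next most frequent were replicate 1 at 1 month for the lowest (17.9%) and replicate 2 at 2 months for the highest (19.1%).

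The 6 genes in which replicate 3 at 1 month stood lowest against the other 1-month libraries include genes of secreted stromal proteins. Mmp3, stromelysin-1, had 20.9 and 21.7 CPM in replicates 1 and 2 and 0.800 in replicate 3, a log2 difference of -4.58 from their mean. Tnfaip6, an inflammation-induced hyaluronan-binding protein, had 83.9 and 61.6 CPM against 3.80. Grem1, a secreted inhibitor of bone morphogenetic proteins, had 43.0 and 16.2 CPM in replicates 1 and 2, and a log2 change from 1 to 2 months of -1.82 ± 0.82. The other 3 were the adhesion gene Clmp (52.2 and 73.9 CPM against 3.35), the dipeptidase gene Dpep1 (110.5 and 197.2 CPM against 8.40) and the hemicentin gene Hmcn2 (71.6 and 46.5 CPM against 3.40). For all 6 genes every 2-month library lay above replicate 3, and without that library Tnfaip6 fell by 1.35 (edgeR adjusted p = 0.0111).

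The genes in which that library stood highest include epithelial transcription factors. Onecut1, hepatocyte nuclear factor 6, which takes part in duct development, had 3.71 and 7.40 CPM in replicates 1 and 2 and 57.6 in replicate 3, a log2 difference of 3.43. Sall1, a zinc finger factor, had 4.40 and 6.46 CPM against 54.3. Apob, the apolipoprotein of lipoprotein particles (7.60 and 7.32 CPM against 70.1), Ptgfr, the prostaglandin F receptor (3.50 and 7.74 CPM against 42.5), and the immunoglobulin heavy chain gene Ighg2b (0.691 and 10.8 CPM against 36.6) were also among them. At 2 months Onecut1 ran from 8.08 to 13.8 CPM, and Sall1 from 9.80 to 15.8, so all 3 libraries at 2 months lay between replicates 1 and 2 and replicate 3. Without replicate 3 Sall1 rose by 1.22 (edgeR adjusted p = 0.0390), while with it the change was -0.76 ± 0.72 and not called. Pkhd1, which encodes fibrocystin, was also highest in replicate 3, with 130.3, 160.1 and 724.7 CPM at 1 month. Alb, the albumin gene of hepatocytes, likewise, with 282.0, 367.3 and 1958 CPM at 1 month and 502.8 to 779.4 CPM at 2 months.

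The main comparison asked which genes differ between WT ducts at 1 and at 2 months. Over 17749 genes tested in a fit of all 12 untreated libraries, 9 genes were called at an adjusted p under 0.05 (0.0507% of genes), 2 higher (0.0113%) and 7 lower (0.0394%) at 2 months, and 2674 had an unadjusted p under 0.05. With upper-quartile scaling the count was 33, of which 22 were higher and 11 lower. A fit of the 6 WT libraries alone called 0 genes by edgeR, with 1646 at an unadjusted p under 0.05. DESeq2 on the 12 libraries called 827 and limma-voom 24. With the replicate number as a block edgeR called 0 genes, with 2347 at an unadjusted p under 0.05. All 9 genes had CPM that did not overlap between the 2 times, against 16.6% of all genes tested. The 9 were picked by p in these same libraries, so this gap was largely set by the choice and is no separate support. All 9 were called again without replicate 3 at 1 month. Without replicate 1 at 1 month, or without any 1 of the libraries at 2 months, 0 of the 9 were called by edgeR, with 1857 to 2786 genes at an unadjusted p under 0.05 in those 4 fits.

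**Figure D2:**
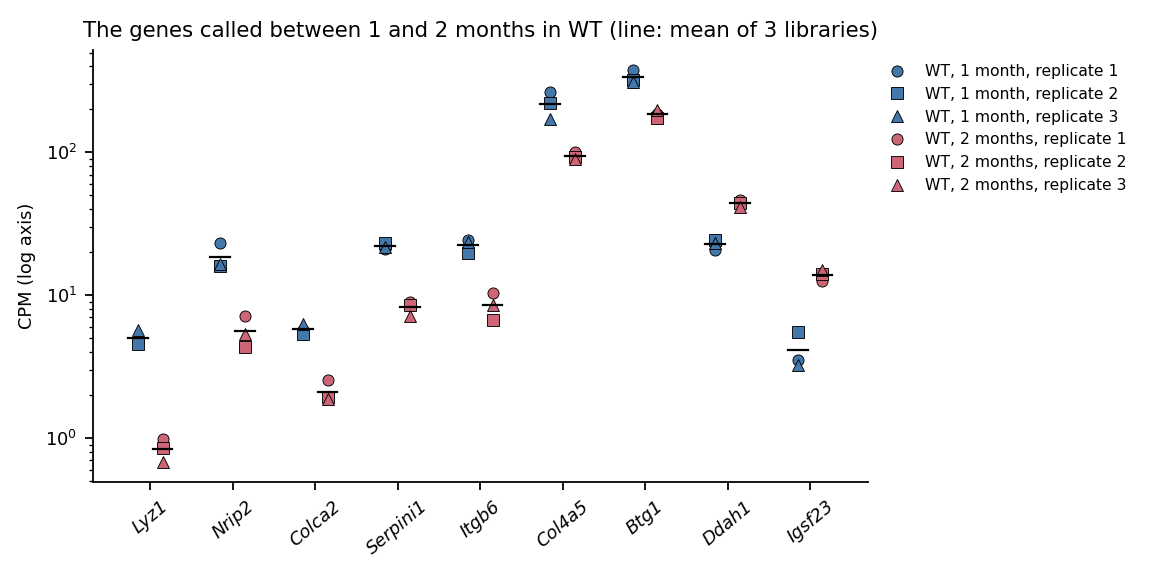
CPM of the 9 called genes in each WT library on a log axis, with 1 month on the left and 2 months on the right for each gene, and a line at the mean of 3 libraries. The 3 libraries of each time lie together and apart from the other time, as for Serpini1 at 21.0 to 23.2 CPM and then 7.17 to 9.03 CPM, and the third 1-month library lies on the side of its own group for each of them.

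Itgb6, Col4a5 and Serpini1 were among the 7 genes that fell. Itgb6 (ENSMUSG00000026971.15, chromosome 2 from 60598292 to 60722643, mm10) encodes integrin beta-6, an epithelial receptor that activates transforming growth factor beta and is known to be induced in injured ducts. It had 24.3, 19.9 and 23.8 CPM at 1 month and 10.3, 6.77 and 8.53 CPM at 2 months, with no overlap, and fell by 1.41 ± 0.19 (edgeR adjusted p = 0.0498, n = 3 per group). Col4a5 (ENSMUSG00000031274.16, chromosome X from 141475385 to 141689234), a collagen IV chain of basement membranes, had 264.6, 222.4 and 170.8 CPM and then 100.1, 93.5 and 90.2 CPM. Its replicates at 2 months were close together and every one was below the 1-month range, and it fell by 1.21 ± 0.17 (adjusted p = 0.0498). Serpini1 (ENSMUSG00000027834.15, chromosome 3 from 75557547 to 75643495), neuroserpin, an inhibitor of tissue plasminogen activator, had 21.0, 23.2 and 21.8 CPM and then 9.03, 8.62 and 7.17 CPM, and fell by 1.41 ± 0.16 (adjusted p = 0.0434). Its 3 libraries at 1 month were within a narrow band, replicate 3 included.

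Btg1 and Nrip2 also fell. Btg1 (ENSMUSG00000036478.8, chromosome 10 from 96617006 to 96622809), a gene that slows cell division and regulates transcription, had 378.9, 321.1 and 310.2 CPM at 1 month and 184.4, 174.0 and 198.2 CPM at 2 months. It fell by 0.86 ± 0.12 (edgeR adjusted p = 0.0477), the smallest change among the 9. Nrip2 (ENSMUSG00000001520.12, chromosome 6 from 128399296 to 128416427), which encodes a nuclear receptor interacting protein, had 23.4, 15.9 and 16.6 CPM and then 7.18, 4.38 and 5.39 CPM, and fell by 1.72 ± 0.23 (adjusted p = 0.0477). Its lowest 1-month library was more than 2 times its highest 2-month library.

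Lyz1 and Colca2, 2 genes with a mean under 10 CPM that were named after their values were seen, also fell. Lyz1 (ENSMUSG00000069515.6, chromosome 10 from 117287797 to 117292868), the lysozyme of intestinal Paneth cells, had 4.71, 4.57 and 5.70 CPM at 1 month and 0.989, 0.858 and 0.680 CPM at 2 months, and fell by 2.55 ± 0.31 (edgeR adjusted p = 0.0434). It is a close copy of Lyz2, and read pairs that fit both copies were left out by the counting, so its level is uncertain. Colca2 (ENSMUSG00000079559.5, chromosome 9 from 51270258 to 51279651) had 5.70, 5.32 and 6.35 CPM and then 2.54, 1.94 and 1.88 CPM, and fell by 1.44 ± 0.19 (adjusted p = 0.0477). In both genes the groups were apart by more than their own range.

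Only Ddah1 and Igsf23 were called higher in that fit. Ddah1 (ENSMUSG00000028194.15, chromosome 3 from 145758675 to 145894277) encodes an enzyme that breaks down asymmetric dimethylarginine, an inhibitor of nitric oxide synthases, and had 20.9, 24.3 and 23.4 CPM at 1 month and 46.4, 44.6 and 41.3 CPM at 2 months. It rose by 0.95 ± 0.14 (edgeR adjusted p = 0.0498), with a gap between the groups wider than the range of either. Igsf23 (ENSMUSG00000040498.7, chromosome 7 from 19937305 to 19950756), an immunoglobulin superfamily gene with a mean under 10 CPM and named after its values were seen, had 3.54, 5.55 and 3.25 CPM and then 12.7, 14.1 and 15.1 CPM. It rose by 1.76 ± 0.25 (adjusted p = 0.0498).

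Leaving out replicate 3 at 1 month changed the count of calls. Of 18521 genes tested without it, 389 were called (2.10%), 70 higher (0.378%) and 319 lower (1.72%). These shares are the background for each count of list members called without replicate 3 below. The 4 groups of the fit share 1 estimate of the spread. Leaving out this WT library also took the calls between 1 and 2 months in PLD from 1706 to 3762, with the same PLD libraries. All 389 then had groups without overlap, against 34.6% of the genes tested, which the choice of genes by p in the same libraries largely sets. Of them, 168 still had no overlap when replicate 3 was read with its group, against 16.6% of the genes tested with all libraries. In 51 of the 389, replicate 3 lay within the range of the 2-month libraries, in 220 below it and in 118 above it, and in 318 it lay below both of the other 1-month libraries. The choice of genes by p in the other libraries bears on these counts too. The sign of the change was the same with replicate 3 in 383 of the 388 that were tested both ways. Both fits share all other WT libraries, so this agreement is no separate support. Of the 319 called lower, replicate 3 lay below the 2-month range in 163. With replicate 1 at 2 months left out as well, 184 genes were called (1.03%), and with the 6 WT libraries less that 1 library, an alternative chosen after the data were seen, 22 were called, 2 higher and 20 lower.

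**Figure D3:**
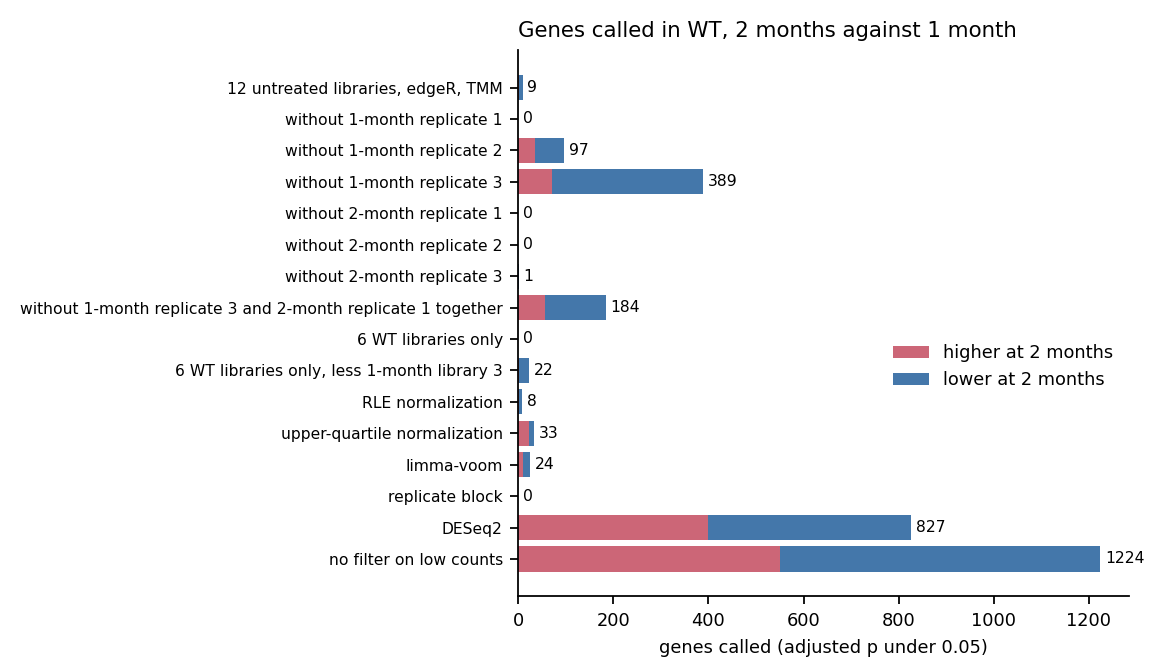
Number of genes called higher and lower at 2 months in WT for each set of libraries and each method, with the total at the end of each bar. Leaving out replicate 3 at 1 month gave 389 calls, leaving out replicate 2 gave 97 and leaving out any of the other 4 WT libraries gave 0 or 1.

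Smooth muscle markers were the list with the most calls without replicate 3. Of 16 smooth muscle markers 12 fell, against 1.72% of all genes tested, and 0 rose in that fit, with a median of -1.23 against 0.00452 over all genes tested. With all 6 libraries 0 were called and the median was -0.81 against -0.04. With replicate 1 at 2 months left out as well 6 were called lower, against 0.715% of all genes tested. In the fit of the 6 WT libraries less replicate 3 at 1 month 0 were called, with a median of -1.19. Myh11 (ENSMUSG00000018830.10, chromosome 16 from 14194535 to 14291372), the smooth muscle myosin heavy chain, had 4764, 2678 and 693.0 CPM at 1 month and 1231, 1256 and 1463 CPM at 2 months. Replicates 1 and 2 lay above the 2-month libraries and replicate 3 below them, and without it Myh11 fell by 1.505 ± 0.23 (edgeR adjusted p = 0.0132). Cnn1, the smooth muscle calponin, had 617.4, 228.3 and 42.5 CPM and then 139.3, 120.0 and 102.0 CPM, and fell by 1.82 without replicate 3 against an uncalled -1.30 with it. The contractile genes Myl9 (-1.44) and Synpo2 (-1.60) fell in the same fit, as did Ldb3, a Z-line protein gene (-1.13). Replicate 3 was the lowest of the 6 WT libraries in 15 of the 16 markers.

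Pln, phospholamban, the brake on the calcium pump of muscle, was the marker in that list that did not follow this order. It had 12.6, 7.36 and 6.80 CPM at 1 month and 2.32, 2.03 and 2.72 CPM at 2 months, so all 3 libraries at 1 month lay above all 3 at 2 months. Its change was -1.92 ± 0.34 with all libraries (edgeR adjusted p = 0.0786) and it fell by 2.08 without replicate 3 (adjusted p = 0.0163). The median of the smooth muscle list was -0.111 without replicate 1 at 1 month, the library with the highest smooth muscle level.

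Lists of fibroblasts and matrix held fewer calls. Over all genes tested, 1.72% were called lower without replicate 3. Of 20 portal fibroblast markers 1 fell without replicate 3, with a list median of -0.651, and 0 were called with it, with a median of -0.309. The call was Eln (ENSMUSG00000029675.12, chromosome 5 from 134702593 to 134747323), the elastin of vessel and duct walls, with 3224, 4430 and 572.1 CPM at 1 month and 983.1, 1609 and 647.0 CPM at 2 months. It fell by 1.83 ± 0.33 without replicate 3 (edgeR adjusted p = 0.0238), which was the lowest of the 6 libraries. Gas6, a ligand of TAM receptors, and Entpd2, an ectonucleotidase of portal fibroblasts, were not called at -0.61 ± 0.18 and -0.37 ± 0.14 with all libraries. Among 24 interstitial matrix genes 1 fell, the fibrillin gene Fbn2 (28.0, 33.7 and 2.45 CPM, then 11.3, 11.3 and 9.57 CPM), by 1.53 without replicate 3, while Col1a1 (1912, 1881 and 401.9 CPM, then 1048, 1912 and 566.3 CPM), Fn1 (-0.51 ± 0.19) and Postn (-0.98 ± 0.60) were not called.

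In basement membranes Col4a5 and Col4a6, neighbouring collagen IV genes whose products assemble together, fell by 1.37 and by 1.58 without replicate 3. Col4a6 had 119.9, 75.3 and 34.1 CPM at 1 month and 35.4, 35.4 and 27.5 CPM at 2 months, so replicate 3 lay within the 2-month range, whereas for Col4a5 it lay above that range. Only Col4a5 was called with all 6 libraries, and 21 basement membrane genes had a median of -0.321. Hepatic stellate cell markers had a median of 0.518 with all libraries, 0 of 18 called. Without replicate 3 their median was 0.0543 and 1 of 18 fell, against 1.72% of all genes tested. That gene was Des, desmin, which smooth muscle also makes, with 904.7, 476.1 and 104.6 CPM and then 242.4, 295.2 and 246.7 CPM. Colec10 and Vipr1, genes of stellate cells, were not called, at 1.61 ± 0.56 and 1.07 ± 0.50 with all libraries.

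The other large decreases without replicate 3 came from genes of several cell types, and the rule for naming them was extended to that fit after the data were seen. The log2 changes were -2.37 for Grem1, -2.04 for Rrad, a small GTPase of muscle, and -1.89 for Slc22a3, a transporter of organic cations. They were -1.99 for Agr2, a disulfide isomerase of mucus-secreting epithelium, and -1.83 for Adamts8, a secreted protease. In Rrad the levels were 309.6, 178.2 and 49.1 CPM at 1 month and 63.0, 57.1 and 58.4 CPM at 2 months, and in Agr2 25.9, 21.3 and 1.85 CPM and then 10.2, 5.46 and 2.20 CPM. In both, replicate 3 was the lowest of the 6 libraries. None of the 5 was called with it (edgeR adjusted p from 0.186 to 0.379).

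Sinusoidal endothelial markers had the largest positive median of all the lists, without a call by edgeR in the fits with all libraries and without replicate 3 at 1 month. All 16 tested sinusoidal endothelial markers had a positive change with all 6 libraries, against 45.3% of all genes tested, with a median of 1.88, and 0 of 16 were called (adjusted p from 0.0928 to 0.464). In 14 of the 16 the 2 times did not overlap, against 8.55% of genes with the higher group at 2 months. Without replicate 3 all 16 were again positive with a median of 1.59, and the median stayed between 1.46 and 2.34 over every other setting. DESeq2 called 12 of the 16 higher, against 399 of all 17749 genes. Without the filter on low counts edgeR called all 16, against 551 of 45191 genes, whose median change was 0.290. Without replicate 2 at 1 month edgeR called 1, against 36 of 18456 genes.

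Stab2 (ENSMUSG00000035459.18, chromosome 10 from 86841198 to 87008025), the hyaluronan scavenger receptor of sinusoids, had 89.6, 169.7 and 16.9 CPM at 1 month and 226.9, 1079 and 552.1 CPM at 2 months. The lowest library at 2 months was above the highest at 1 month, while the libraries within each time differed several-fold, and the change was 2.75 ± 0.84 (edgeR adjusted p = 0.175). Flt4, a vascular endothelial growth factor receptor, had 113.7, 180.7 and 56.1 CPM and then 250.6, 691.8 and 442.3 CPM, a change of 1.98 ± 0.47 (adjusted p = 0.115). Wnt2, a ligand made by sinusoidal endothelium, had 15.9, 25.0 and 9.25 CPM and then 55.3, 111.2 and 55.0 CPM, a change of 2.14 ± 0.45 (adjusted p = 0.0928). In all 3 genes replicate 2 was the highest library of each time and replicate 3 at 1 month the lowest of all.

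Genes shared by all endothelium had a smaller median. All 20 pan-endothelial markers were positive, with a median of 0.936 and 0 called, and without replicate 3 the median was 0.603. Pecam1, an adhesion protein of all endothelium, had 713.6, 989.4 and 321.2 CPM and then 992.1, 1386 and 854.5 CPM, with overlapping groups and a change of 0.68 ± 0.43. Eng, endoglin, and Kdr, the main receptor for vascular endothelial growth factor, had changes of 1.33 ± 0.37 and 1.61 ± 0.49 and were not called (edgeR adjusted p = 0.148 and 0.175). Vwf, von Willebrand factor, belongs to the large vessel list and not to this one. It had 1096, 1682 and 867.3 CPM and then 2620, 3978 and 1920 CPM, without overlap, and a change of 1.22 ± 0.42 (adjusted p = 0.217).

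Markers of large vessels and lymphatics had medians nearer to 0. The 18 large vessel markers had a median of 0.167 with all libraries and -0.0976 without replicate 3, with 0 called in the first and 1, Hey1, lower in the second. Hey1, a Notch target of arteries, had 55.8, 50.4 and 21.6 CPM at 1 month and 24.2, 27.1 and 18.1 CPM at 2 months and fell by 1.21 without replicate 3. Ephb4, a receptor of veins, and Ly6a, a surface protein of vessels and progenitors, were not called, at 1.07 ± 0.22 and 1.10 ± 0.36. With all libraries the changes in this list, which also holds Vwf, ran from -0.884 to 1.22. The 9 lymphatic markers had medians of 0.327 and 0.0956, with Reln at 1.02 ± 0.49 and Itga9 at 0.52 ± 0.29. Reln is also a member of the stellate cell list.

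Ligands that endothelial cells supply to hepatocytes and other neighbours were among the genes that rose without replicate 3. Wnt9b (ENSMUSG00000018486.2, chromosome 11 from 103727364 to 103749821), made with Wnt2 by endothelium of the central vein and sinusoids, had 41.9, 54.2 and 26.7 CPM at 1 month and 166.3, 247.5 and 159.5 CPM at 2 months. Every library at 2 months was above every library at 1 month, replicate 3 was the lowest, and Wnt9b rose by 1.99 ± 0.43 without it (edgeR adjusted p = 0.0452) against 2.22 ± 0.42 with it (adjusted p = 0.0895). Rspo3 (ENSMUSG00000019880.10, chromosome 10 from 29452416 to 29535867), a secreted amplifier of Wnt signals, had 79.4, 91.6 and 42.7 CPM and then 212.2, 317.8 and 236.4 CPM, and rose by 1.57 ± 0.35 without replicate 3 (adjusted p = 0.0483). Among 22 Wnt and angiocrine ligands these 2 were the only called members, against 0.378% of all genes tested called higher without replicate 3. The median of the list was 0.0300 with all libraries.

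Kit, the stem cell factor receptor, which some sinusoidal endothelium carries, had 26.9, 30.5 and 14.8 CPM and then 71.2, 197.3 and 106.5 CPM, and rose by 2.12 without replicate 3 (edgeR adjusted p = 0.0408). The other genes with the largest increases in that fit were the transporter gene Slc26a10 (1.96), the complement receptor gene C5ar2 (1.85), the heparanase gene Hpse (1.81), and Cd55 (1.64), which restrains complement on cell surfaces. In Slc26a10, Hpse and Cd55 the 2 times did not overlap in either set of libraries, and replicate 3 was the lowest library, as in Kit. Fga, a fibrinogen chain made by hepatocytes, rose by 2.20 without replicate 3, from 6.86 and 7.40 CPM in replicates 1 and 2 (13.1 in replicate 3) to 15.8, 46.0 and 37.0 CPM.

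Epithelial lists had negative medians, which were nearer to 0 without replicate 3. All 24 cholangiocyte markers had a negative change with all 6 libraries, against 54.7% of all genes, with a median of -0.691 and 0 called. Without replicate 3, 20 of 24 were negative with a median of -0.245 and 0 called. Replicate 3 was the highest of the 6 WT libraries for 21 of the 24. Elf3, an epithelial transcription factor, had 108.4, 70.0 and 209.4 CPM at 1 month and 61.5, 45.1 and 62.0 CPM at 2 months, without overlap, and its change was -1.20 ± 0.37 (edgeR adjusted p = 0.175).

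For 30 genes of epithelial junctions and polarity the median was -0.575 with all libraries and -0.0217 without replicate 3, with 0 called in both. Mpp5, which encodes the polarity scaffold PALS1, and Pard3, a polarity protein of tight junctions, had changes of -0.53 ± 0.15 and -0.48 ± 0.14. Among 19 tested genes of ion and water transport 0 were called with all libraries. Slc12a2, the basolateral sodium, potassium and chloride cotransporter that feeds secretion, had 127.5, 107.9 and 66.8 CPM at 1 month and 60.9, 51.0 and 42.1 CPM at 2 months. The groups did not overlap, and Slc12a2 fell by 1.20 without replicate 3 (edgeR adjusted p = 0.0132) against -0.97 ± 0.23 with it (adjusted p = 0.119). Slc4a4, a sodium bicarbonate cotransporter, had 130.4, 38.4 and 161.0 CPM and then 35.0, 29.8 and 33.7 CPM, a change of -1.74 ± 0.40 that was not called.

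Circadian clock genes were lower at 2 months in most members. Of the 19 tested, 1-month replicate 3 was the highest of the 6 WT libraries in 10 and the lowest in 3. The clock is a feedback loop in which Arntl and its partners switch on the Per, Cry, Nr1d, Dbp, Tef and Hlf genes, whose levels cycle through the day, and the hour of collection is not given in the sources used here. Of 19 clock genes 16 had a negative change with a median of -1.03, and in 11 the 2 times did not overlap with the lower group at 2 months, against 8.05% of all genes. None of the 19 was called with all libraries, and Cry2 and Bhlhe40 fell without replicate 3.

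Bhlhe40, a repressor in the loop, had 777.1, 610.6 and 585.8 CPM at 1 month and 339.3, 387.0 and 456.4 CPM at 2 months, and fell by 0.82 ± 0.15 without replicate 3 (edgeR adjusted p = 0.0266). Cry2, another repressor, had 132.4, 105.1 and 82.4 CPM and then 41.0, 44.7 and 70.5 CPM, and fell by 1.20 ± 0.22 (adjusted p = 0.0246). In both genes the 2 times were apart with every library, and replicate 3 at 2 months was nearest to the 1-month range. Dbp, a clock output factor that was named after its values were seen, as were Tef, Hlf and Arntl, had 34.6, 23.8 and 103.1 CPM at 1 month and 2.37, 2.85 and 10.8 CPM at 2 months. Its change was -3.34 ± 0.72 (adjusted p = 0.0987).

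Tef had 100.2, 91.3 and 302.2 CPM and then 30.7, 32.0 and 69.7 CPM, and Hlf 18.1, 12.8 and 35.0 CPM and then 3.78, 3.84 and 8.37 CPM. Both were highest in replicate 3 of each time. Arntl ran the other way, with 35.2, 53.5 and 6.65 CPM at 1 month and 58.6, 61.9 and 52.5 CPM at 2 months, so that its lowest library was the one in which Dbp, Tef and Hlf were highest. The change of Arntl was 0.86 ± 0.64, and the 2 times overlapped, since replicate 2 at 1 month lay above replicate 3 at 2 months.

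**Figure D4:**
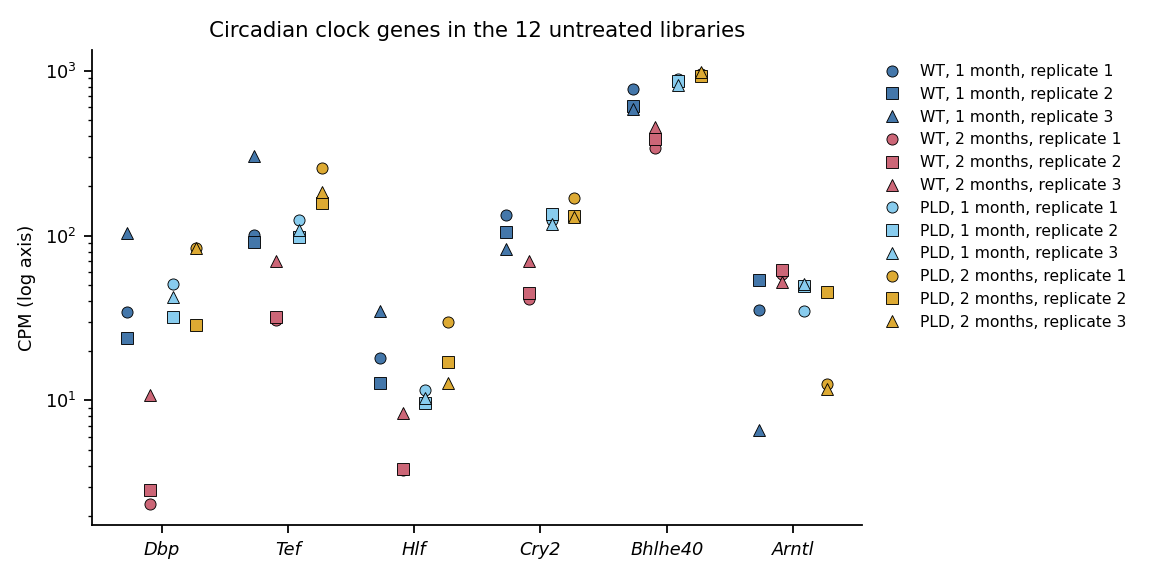
CPM of 6 clock genes in the 12 untreated libraries on a log axis, with WT at 1 and 2 months and PLD at 1 and 2 months from left to right for each gene and the symbol giving the replicate. Dbp is at 2.37 to 10.8 CPM in WT at 2 months and at 23.8 CPM or more in the other WT libraries, and replicate 3 at 1 month in WT holds the highest WT level of Dbp, Tef and Hlf and the lowest of Arntl.

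Genes of stress and inflammation mostly had negative changes. Immediate early genes, which are induced within minutes to hours of a stimulus such as tissue digestion, had a negative change in 23 of 25 members with a median of -0.480 and 0 called. Without replicate 3, Ier5 fell by 0.82 and Nr4a2 by 0.89. Ier5 had 547.5, 439.7 and 284.7 CPM at 1 month and 279.6, 273.7 and 291.6 CPM at 2 months, so replicate 3 lay within the 2-month range. Zfp36, which destabilises cytokine transcripts, had 5340, 3989 and 2796 CPM and then 2317, 2361 and 2277 CPM, a change of -0.80 ± 0.27 that was not called (edgeR adjusted p = 0.203).

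Of 25 NF-kB and inflammatory cytokine genes 21 had a negative change with a median of -0.395, and 0 were called with all libraries. Nfkbia, the inhibitor that NF-kB induces against itself, had 1528, 1231 and 813.0 CPM and then 598.4, 689.1 and 565.5 CPM, without overlap, and fell by 1.17 without replicate 3 (edgeR adjusted p = 0.0139). The cytokine gene Il6 had 184.1, 94.8 and 8.90 CPM and then 37.3, 38.4 and 47.8 CPM, and fell by 1.76 without replicate 3, which lay below the 2-month range. Nfkbiz was not called, at -0.49 ± 0.16. Heat shock genes had a median of -0.224, with Bag3, a cochaperone, lower by -0.63 without replicate 3 as the 1 call among 15, and Dnajb1 and Hsp90aa1 at -0.63 ± 0.16 and -0.47 ± 0.15 with all libraries. None of 30 interferon response genes was called, at a median of -0.189, with Cxcl10 at -0.80 ± 0.37 and Ifit2 at -0.64 ± 0.47.

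Markers of blood cells in the preparations gave few calls. Of 12 tested neutrophil markers 11 had a negative change, with a median of -1.37, and Ngp, a granule protein, had 13.5, 2.94 and 9.75 CPM at 1 month and 0.301, 0.136 and 0.366 CPM at 2 months. Ngp fell by 4.93 without replicate 3 (edgeR adjusted p = 0.0390) and was the only neutrophil marker called. Camp, another granule gene, had a change of -2.98 ± 0.91. None of 18 macrophage and Kupffer cell markers was called, at a median of -0.211, and Adgre1, a surface receptor of macrophages, had 122.5, 89.4 and 68.6 CPM and then 121.9, 51.0 and 58.6 CPM with overlapping groups. Clec4f and Folr2 had changes of 1.09 ± 0.53 and -1.04 ± 0.67.

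Among lymphocyte genes Lck, a kinase of T cells, had 1.77, 1.43 and 3 CPM and then 3.87, 4.06 and 3.56 CPM, and rose by 1.25 without replicate 3 (edgeR adjusted p = 0.0280). It was the 1 member called of 13 T and NK cell markers tested in that fit, against 0.378% of all genes tested called higher. Gzmb had a change of 2.10 ± 0.76 with all libraries. Of 11 tested B and plasma cell markers 10 had a positive change and 0 were called, with Igkc at 32.2, 38.3 and 55.8 CPM and then 176.6, 77.4 and 119.7 CPM, and Blk at 2.49 ± 0.63. None of 15 MHC class II and dendritic cell markers was called, at a median of 0.0524, with Clec9a at 1.30 ± 0.43 and Zbtb46 at 0.93 ± 0.31.

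Among hepatocyte markers 0 of 26 were called with all libraries, and the median was 0.228, while without replicate 3 only Fga was called. Fgb, another fibrinogen chain, had 3.50, 2.00 and 2.65 CPM and then 4.47, 23.5 and 13.8 CPM, and was not called at 2.36 ± 0.54. The acute phase genes Saa1 and Saa2 stood at 22.3 and 20.1 CPM in replicate 2 at 2 months and at 0.994 to 1.89 CPM in the other 2 libraries of that time. At 1 month neither passed 0.345 CPM in any library. Replicate 2 at 2 months was also the library with the highest Fga. Mesothelial markers numbered 9, with a median of -0.16 and 0 called, with Gpm6a at 0.75 ± 0.31 and Msln at -0.88 ± 0.29. The 8 Schwann cell markers had 0 calls and a median of 0.0651, with Mbp at -0.71 ± 0.23 and Cnp at 0.36 ± 0.15.

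Growth and metabolism lists held few calls in WT. In mitosis and cell cycle progression 29 of 30 genes had a negative change with a median of -0.858 and 0 called. Mki67, the proliferation marker Ki-67, had 17.7, 13.0 and 30.4 CPM at 1 month and 5.80, 12.4 and 4.50 CPM at 2 months, without overlap and with a change of -1.42 ± 0.46 (edgeR adjusted p = 0.191). Kif23, a kinesin of cell separation, was at -1.16 ± 0.42. Without replicate 3 the median was -0.505, and replicate 3 was the highest WT library for 26 of the 30. None of 30 DNA replication genes was called, at a median of -0.266, with Mcm4 at -0.38 ± 0.13 and Rfc5 at -0.56 ± 0.23.

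Among 23 tested imprinted and juvenile growth genes, which fall after birth in many organs, 0 were called with all libraries. Gpc3, a glypican that restrains growth, fell by 0.84 without replicate 3, while Igf2bp1 and Hmga2 had changes of 2.99 ± 0.96 and -1.40 ± 0.49. In sterol synthesis 21 of 24 genes had a positive change with a median of 0.220. Fdps and Lss were not called, at 0.89 ± 0.35 and 0.63 ± 0.26. Without replicate 3, 1 of the 24 was called higher (edgeR adjusted p = 0.0460), against 0.378% of all genes tested.

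All 24 fatty acid oxidation genes had a negative change, with a median of -0.274 and 0 called, and Hadh and Cpt1a at -0.41 ± 0.14 and -0.35 ± 0.13. Nuclear oxidative phosphorylation genes had a median of -0.0975, with Atp5c1 at -0.31 ± 0.08 and Uqcrfs1 at -0.37 ± 0.10. The 12 tested genes of mitochondrial DNA had a median of -0.305, with mt-Co2 at -0.61 ± 0.24 and mt-Co3 at -0.47 ± 0.19. For 35 ribosomal protein genes the median was -0.141, with Rpl10a at -0.30 ± 0.16 and Rps20 at -0.32 ± 0.16. No member of these 4 lists was called with or without replicate 3.

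The Notch pathway, NRF2 targets, the unfolded protein response and p53 targets had medians of 0.0866, -0.156, 0.0952 and -0.0808, with 0 called with all libraries. Their members with the smallest p were Lfng (0.73 ± 0.22) and Jag2 (-0.61 ± 0.21), Slc7a11 (-1.85 ± 0.49) and Gsta4 (-1.22 ± 0.42), Dnajb9 (-0.47 ± 0.15) and Herpud1 (-0.73 ± 0.26), and Bax (0.51 ± 0.12) and Aen (0.60 ± 0.15). The Notch target Hey1 was the only gene of these 4 lists called without replicate 3. On the Y chromosome Uty was at -0.45 ± 0.12, and it was not called.

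Genes of polycystic disease were expressed at both times without a call. Pkd1, polycystin-1, had 353.7, 403.4 and 206.9 CPM at 1 month and 316.5, 384.6 and 345.2 CPM at 2 months, and Pkd2, polycystin-2, had 221.1, 252.7 and 255.4 CPM and then 221.0, 245.3 and 256.6 CPM. Their changes were 0.12 ± 0.21 and -0.01 ± 0.12 (edgeR adjusted p = 0.825 and 0.971), and Pkd2 had the narrowest range of the disease genes named here. Pkhd1 had 185.3, 131.2 and 250.3 CPM at 2 months and a change of -0.84 ± 0.55. Without replicate 3 at 1 month the sign turned in all 3 genes, to 0.37 for Pkhd1, -0.12 for Pkd1 and 0.0187 for Pkd2, and none was called. Of the 12 genes of this list, the Wnt coreceptor gene Lrp5 (0.62 ± 0.18) and the ciliary gene Dzip1l (-0.50 ± 0.17) had the smallest p, and 0 were called with or without replicate 3.

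Several genes, most of them epithelial, varied widely within a time. At 2 months the widest spread was in Ltf, lactoferrin, with 70.1, 90.8 and 1.52 CPM. Ltf is also a member of the neutrophil list. A wide spread was also seen in Duox2 and Duoxa2, an oxidase that makes hydrogen peroxide at epithelial surfaces and its maturation factor. Duox2 had 72.3, 95.5 and 3.19 CPM at 2 months and 124.3, 27.2 and 128.3 CPM at 1 month, and Duoxa2 had 14.2, 18.5 and 0.575 CPM and at 1 month 29.2, 3.44 and 31.5 CPM. Muc4, a membrane mucin, and Ly6d, a surface protein of some epithelia, had the same low libraries. Muc4 stood at 15.3, 17.1 and 0.732 CPM at 2 months and at 46.6, 6.91 and 29.6 CPM at 1 month, and Ly6d at 21.6, 15.8 and 1.41 CPM and at 61.1, 10.3 and 66.1 CPM. Thus replicate 3 at 2 months and replicate 2 at 1 month were the lowest of their times for all 5 genes (Ltf had 132.0, 20.6 and 80.7 CPM at 1 month), and none of them was called between the times.

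Other genes with a wide spread within a time are made outside the duct. Ctrb1, a digestive enzyme precursor of the exocrine pancreas, had 63.4, 2.34 and 36.4 CPM at 1 month and 1.118, 0.0903 and 0.105 CPM at 2 months. The immunoglobulin genes Ighg2c (1.42, 37.5 and 58.7 CPM at 1 month) and Ighg2b, which are read from similar sequences, ranged widely among libraries of 1 time. Serpina1e, a protease inhibitor of hepatocytes with close copies, had 5.12, 35.7 and 1.15 CPM at 2 months. None of these was called (edgeR adjusted p from 0.147 to 0.721).

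The change with time in WT was then set against that in untreated PLD preparations of the same 2 times. In PLD 1706 genes were called between 1 and 2 months (9.61%), 778 higher (4.38%) and 928 lower (5.23%), and the interaction, which tests whether the change in WT differs from that in PLD, called 1008 genes (5.68%), 555 with the larger value in WT (3.13%) and 453 with the smaller (2.55%). Of the 1008, 5 were called in WT and 678 in PLD. Over these genes the median change was 0.822 in WT and -1.37 in PLD for the first set, and -0.469 in WT and 0.783 in PLD for the second. Without 1-month replicate 3 in WT the interaction called 1413 genes (7.63%), 736 higher (3.97%) and 677 lower (3.66%). That fit called 3762 of 18521 genes in PLD, 1693 higher and 2069 lower, with the same PLD libraries. Without replicate 2 at 2 months in WT, the library with the highest sinusoidal sum, the interaction called 100 of 18416 genes. Leaving out each of the other WT libraries gave 456 to 1392 interaction calls, and the replicate number as a block gave 426.

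Endothelial genes differed between the genotypes in their change with time. Of 16 sinusoidal markers 13 were called in the interaction with the larger value in WT, and of 20 pan-endothelial markers 17, against 3.13% of all genes tested. In Stab2 the change was 2.75 ± 0.84 in WT and -3.11 ± 0.85 in PLD, an interaction of 5.86 ± 1.20 (edgeR adjusted p = 0.0253). Wnt9b differed by 4.89 ± 0.61, Rspo3 by 4.74 ± 0.54, Kit by 4.99 ± 0.62 and Slc26a10 by 5.15 ± 0.54 (adjusted p = 0.00768 for each), and all 4 fell in PLD. In PLD the sinusoidal markers summed to 1524 to 3489 CPM at 1 month and to 735 to 994 CPM at 2 months, against 1065 to 2768 and then 4107 to 9652 CPM in WT, and the part of cell composition in these differences was not tested.

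The other genes with the smallest interaction p included Cit, citron kinase (2.97 ± 0.31), Igsf23 (2.97 ± 0.36), Tspan7, a tetraspanin (2.78 ± 0.34), and Fubp1, a regulator of Myc (1.20 ± 0.15), all with the larger value in WT. With the smaller value in WT were Mcf2l, a guanine nucleotide exchange factor (-1.53 ± 0.17), Ifi30, a lysosomal thiol reductase (-1.47 ± 0.17), Ephx2, soluble epoxide hydrolase (-2.08 ± 0.24), Runx1, a transcription factor (-2.87 ± 0.34), Gnl1 (-0.98 ± 0.12) and Pik3r2, a subunit of phosphoinositide 3-kinase (-0.99 ± 0.12). Each of these 10 was also called in PLD alone, and of them only Igsf23 was called in WT alone. Ephx2 had 25.2, 22.0 and 22.6 CPM at 1 month and 12.3, 13.8 and 9.15 CPM at 2 months in WT, without overlap, against 14.3 to 19.7 CPM and then 32.3 to 38.5 CPM in PLD.

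Several genes that fell in WT did not change by the same amount in PLD. Itgb6 was at 0.01 ± 0.19 in PLD, an interaction of -1.42 ± 0.27 (edgeR adjusted p = 0.0209), and Btg1 at 0.04 ± 0.11, an interaction of -0.90 ± 0.16 (adjusted p = 0.0176). Serpini1 and Colca2 also differed, by -1.05 ± 0.23 and -2.07 ± 0.26. For Lyz1, Nrip2, Col4a5 and Ddah1 the interaction was not called, with adjusted p of 0.345, 0.151, 0.0609 and 0.514, and Col4a5 was called in it without replicate 3 (adjusted p = 0.0175). Lyz1 fell by 1.84 ± 0.31 in PLD as well, and Ddah1 rose there by 0.73 ± 0.13.

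The same test was read for the clock and smooth muscle lists. Of 19 clock genes 6 were called in the interaction with the smaller value in WT, against 2.55% of all genes tested, among them Dbp, Tef (-2.75 ± 0.65), Hlf (-2.97 ± 0.62), Cry2 (-1.22 ± 0.31) and Bhlhe40 (-0.89 ± 0.22). In PLD 0 clock genes were called with time. Of 16 smooth muscle markers 10 were called lower in PLD, against 5.23% of all genes tested, with a median of -1.81, and 0 were called in the interaction, with Myh11 at -2.10 ± 0.50 in PLD and an interaction of 1.06 ± 0.68 (edgeR adjusted p = 0.375). Elastin fell by 3.38 ± 0.62 in PLD, and the interaction of Eln was 2.04 ± 0.81 (adjusted p = 0.16).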

How the data were processed

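RNA was measured as whole-number counts of read pairs per gene, as deposited, in 12 untreated libraries (3 each of WT and PLD at 1 and 2 months). Per the submitters' processing notes, reads were handled with STAR 2.7.4a, SAMtools 1.12 and featureCounts 1.6.0 against mm10, and DESeq2 1.26.0 is also named. Per the file headers, counting was on read pairs without strand over 55401 genes, so reads of a gene and its antisense partner cannot be told apart, and multi-mapped reads were left out. Symbols came from a table of gene identifiers, which matched 55141 genes. 0 columns had no sample and 0 pairs of libraries were identical.

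From these counts, edgeR 4.0.16 (R 4.3.3, limma 3.58.1) removed low genes with filterByExpr, scaled libraries by TMM and ran a quasi-likelihood F-test in 1 fit of 4 group means (8 residual degrees of freedom), with Benjamini-Hochberg adjustment over all genes and a threshold of 0.05. Standard errors are the log2 fold change over the square root of F. Log2 CPM adds a prior count of 2. WT libraries held 18012959 to 27999474 counts. The members, the 42 gene lists and the tests were chosen with earlier results of these data known. Genes were named by rule: up to 8 called genes in each direction with the largest change, groups apart and a mean of at least 10 CPM; per list up to 4 called members or the 2 with the smallest p; the 6 widest spreads within each time and the 6 largest differences each way of replicate 3 at 1 month; the 6 interaction genes each way with the smallest p; and a set of disease, marker and sex-linked genes. After the data were seen, the rule was also applied to the fit without replicate 3. Predicted genes were left out. Alternatives were leaving out each WT library, replicate 3 at 1 month with replicate 1 at 2 months, WT libraries only, RLE and upper-quartile scaling, no filter, DESeq2 1.42.0, limma-voom and the replicate number as a block. The test was tried on simulated counts. Some results are not reported here.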

Additional observations from a re-analysis of the deposited data

Results flagged for a closer look

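The change from 1 to 2 months differed between WT and PLD in 1008 genes by the interaction term of edgeR, and the genes named in the text that passed it are given here with the WT change minus the PLD change on the log2 scale. The largest positive differences were those of Stab2 (5.86), Slc26a10 (5.15), Kit (4.99), Wnt9b (4.89), Rspo3 (4.74), Wnt2 (4.71), Blk (4.45), Kdr (4.07) and Colec10 (3.65). Next among the positive differences came Cd55 (3.20), Clec9a (3.16), C5ar2 (3.06), Igsf23 (2.97), Cit (2.97), Vwf (2.91), Tspan7 (2.78), Flt4 (2.77) and Eng (2.61). The remaining positive differences were those of Gpm6a (2.60), Pecam1 (2.55), Hpse (2.17), Itga9 (1.81), Zbtb46 (1.77), Ephb4 (1.55) and Fubp1 (1.20). The largest negative differences were those of Dbp (-3.999), Gsta4 (-3.27), Hlf (-2.97), Runx1 (-2.87), Tef (-2.75), Elf3 (-2.51), Slc4a4 (-2.37), Msln (-2.22) and Ephx2 (-2.08). Next among the negative differences came Colca2 (-2.07), Krt19 (-1.89), Mcf2l (-1.53), Ifi30 (-1.47), Itgb6 (-1.42), Gas6 (-1.31), Slc12a2 (-1.26), Cry2 (-1.22) and Serpini1 (-1.05). The remaining negative differences were those of Pik3r2 (-0.99), Gnl1 (-0.98), Dnajb1 (-0.91), Btg1 (-0.90), Bhlhe40 (-0.89), Hadh (-0.77), Uqcrfs1 (-0.65) and Atp5c1 (-0.46). The part of cell composition in these differences was not tested. Groups of 3 libraries were too small for a test of single libraries that stand apart.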

How the results depend on the processing

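With each WT library left out in turn, the genes called in WT ranged from 0 to 389, with 0 to 70 higher and 0 to 319 lower, and the interaction from 100 to 1413. The lowest WT counts came without replicate 1 at 1 month or replicate 1 or 2 at 2 months, and the lowest interaction count without replicate 2 at 2 months. Leaving out replicate 3 at 1 month and replicate 1 at 2 months together gave 184 calls, 56 higher and 128 lower. The 6 WT libraries alone gave 0 calls, 0 higher and 0 lower, and without 1-month library 3 they gave 22, of which 20 were lower. RLE scaling gave 8 calls, 1 higher, and upper-quartile scaling 33, 22 higher and 11 lower. Without the filter on low counts there were 1224 calls, 551 higher and 673 lower, and 2282 in the interaction. DESeq2 gave 827, 399 higher and 428 lower, and 2343 in the interaction, and limma-voom gave 24, 10 higher and 14 lower. The 9 called genes were all called again by DESeq2, by limma-voom, with upper-quartile scaling, without the filter, without replicate 2 or 3 at 1 month and with replicate 3 at 1 month and replicate 1 at 2 months left out together. RLE scaling called 8 of them, the WT libraries less 1-month library 3 called 1, and 0 were called in the WT libraries alone, with the replicate block, without replicate 1 at 1 month, or without replicate 1, 2 or 3 at 2 months. The cause of these differences was not tested.

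With the replicate number as a block there were 0 WT calls, 0 higher and 0 lower, with 2347 at an unadjusted p under 0.05 in edgeR, and 426 in the interaction. Same-numbered libraries of the 2 WT times had correlations of deviations of 0.08, 0.20 and 0.16, against -0.22 to 0.13 for libraries with other numbers. For replicates 2 and 3 at 1 month the same number was the best match, while replicate 1 correlated best with replicate 2 at 2 months (0.13). These values do not settle whether the numbers mark pairs. The labels do not say that a number marks a shared litter or day, so the main fit had no block.

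The median SD of log2 CPM among the 3 libraries at 1 month was 0.348, and it was 0.158 without replicate 3 and 0.243 over genes of at least 10 CPM. Changes that turned sign without both libraries were Onecut1 0.97, Sall1 1.23, Apob 1.68, Ptgfr 0.50, Pkd1 -0.0534, Pkd2 0.0831, Pkhd1 0.39 and Alb 0.98. In the 6 WT libraries less 1-month library 3 they were Onecut1 1.13, Sall1 1.26, Apob 1.42, Ptgfr 0.77, Pkd1 -0.0855, Pkd2 0.0584, Pkhd1 0.42 and Alb 0.93. In limma-voom they were Serpina1e -0.0898, Clmp 0.52, Dpep1 0.59, Onecut1 0.0757, Sall1 0.20 and Apob 0.30, and Pkd2 was 0.0192 in the WT libraries alone and 0.0129 with upper-quartile scaling. With 1 library left out at a time, the ranges that crossed 0 were Alb -0.9964 to 0.89, Apob -1.05 to 1.39, Clmp -0.79 to 0.36, Col1a1 -0.80 to 0.0750, Dpep1 -0.83 to 0.52, Ltf -1.14 to 0.0425, Onecut1 -1.50 to 1.08, Pkd1 -0.12 to 0.28, Pkd2 -0.11 to 0.0470, Pkhd1 -1.27 to 0.37, Ptgfr -1.47 to 0.72, Sall1 -1.30 to 1.22 and Serpina1e -1.27 to 1.42. None of these genes was called with all libraries. Of 42 lists, 9 had a median of the other sign without replicate 3, 0 with RLE scaling and 1 with upper-quartile scaling. Depth limits genes with few counts, and 3 libraries a group limit the rest.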
